A study of Homo sapiens with 4 samples.

Results

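The mRNAs of the NF-kB transcription factors and of the proteins that restrain them were compared between glucose-deprived and control leukaemia cells. The 10 genes were chosen by symbol: the 5 subunit genes NFKB1, NFKB2, REL, RELA and RELB, the IkB-type inhibitor genes NFKBIA, NFKBIB, NFKBIE and NFKBIZ, and TNFAIP3, which encodes the ubiquitin-editing protein A20. All 10 had a row among the 60609 gene identifiers of the table. All 10 also passed the filter on low values, a mean over the 4 libraries of 1 normalized count or more, which left 27486 genes to test. The cells were CCRF-CEM/HA-AMPKa2, a derivative of the human T cell acute lymphoblastic leukaemia line CCRF-CEM labelled as carrying HA-AMPKa2 in both groups; AMPKa2 is a catalytic subunit of the energy-sensing kinase AMPK. The No glucose group (2 libraries, ONG_9 and ONG_10) had spent 24 hours in medium lacking glucose, and the Ctrl group (2 libraries, CTRL_7 and CTRL_8) spent the same 24 hours in control medium. Growth medium was RPMI with fetal bovine serum. The labels call the Ctrl cells untreated whereas the series' design line speaks of a vehicle, and they do not say whether the line is a single clone or whether replicates were separate cultures. The p-values therefore measure only the spread between these libraries, which may be technical.

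NF-kB proteins are dimers of Rel-family subunits that are held inactive by IkB proteins. In the canonical route the IKK complex phosphorylates IkB, which is degraded, and dimers of RELA or REL with processed NFKB1 enter the nucleus. In the noncanonical route the kinase encoded by MAP3K14 drives processing of the NFKB2 precursor, which pairs with RELB. Several inhibitors, NFKBIA and TNFAIP3 among them, are themselves NF-kB target genes and close negative feedback loops, and in T cells the pathway acts downstream of the antigen receptor.

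The libraries held 19035535 and 20081266 reads assigned to genes in No glucose, and 96698709 and 24513840 in Ctrl. Replicate libraries differed by more than sampling noise, with a chi-square per degree of freedom of 5.72 in No glucose and 1.81 in Ctrl for genes with 20 reads or more. T cell markers were present: all 8 had reads and all but the pre-T receptor gene PTCRA (at most 7.02 normalized counts) were at 270 or more, with sums of 58555 to 58860 in No glucose and 57974 to 58926 in Ctrl; 2 were higher (CD3E, CD247) and 2 lower (CD3G, CD7). Of the B cell markers, MS4A1 was at most 0.343 normalized counts, while CD79A lay at 423 and 449 in No glucose and 670 and 663 in Ctrl. The 5 B cell markers summed to 523 to 536 in No glucose and 894 to 907 in Ctrl, and 3 of 4 tested were lower. Myeloid markers summed to 33.4 to 54.7 in No glucose and 39.5 to 44.1 in Ctrl, with MPO at 0. Genes listed as adherent cell markers summed to 1075 to 1207 in No glucose and 1659 to 1688 in Ctrl. Most of that came from PECAM1 and EPCAM, the 2 lower genes of 5 tested. The collagen and keratin genes were at no more than 25.3 normalized counts in any library, with COL1A1 the 1 higher gene. The part of these markers in the results on NF-kB genes was not tested. PRKAA2, the AMPK alpha 2 gene, had 670 and 662 normalized counts in No glucose and 409 and 409 in Ctrl, and these counts do not separate any introduced copy from the cells' own.

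REL, RELB, NFKB2, NFKBIZ and TNFAIP3 rose without glucose, whereas NFKB1, NFKBIA and NFKBIB fell. RELA and NFKBIE did not pass the test. The rises lay between 1.33-fold for TNFAIP3 and 1.71-fold for RELB, as ratios of mean normalized counts, and the falls left 0.696 of the Ctrl mean for NFKBIA, 0.705 for NFKBIB and 0.830 for NFKB1. The count was thus 5 higher and 3 lower of 10 (limma on log2(normalized count + 1), Benjamini-Hochberg adjusted p under 0.05), against 35.1% of all tested genes called, 14.4% higher and 20.7% lower. Without CTRL_7 the count was 4 higher and 1 lower. All 10 members had a mean normalized count above 200. Among the 9656 genes tested at 200 or more, a level chosen after the values were seen, 68.5% were called, 19.5% higher and 49.0% lower, so a share of 8 in 10 called was not far from that of other well-expressed genes. The median log2 fold change of the members was 0.27, against 0.04 for all tested genes and -0.20 for genes at 200 or more. In all 10 members the libraries of the groups did not overlap, as in 66.8% of all tested genes. That share was not computed for genes at 200 normalized counts or more, the level of the members. The values are relative to the other mRNAs of a library, and less RNA of a gene per cell cannot be told apart from fewer cells that express it.

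**Figure D1:**
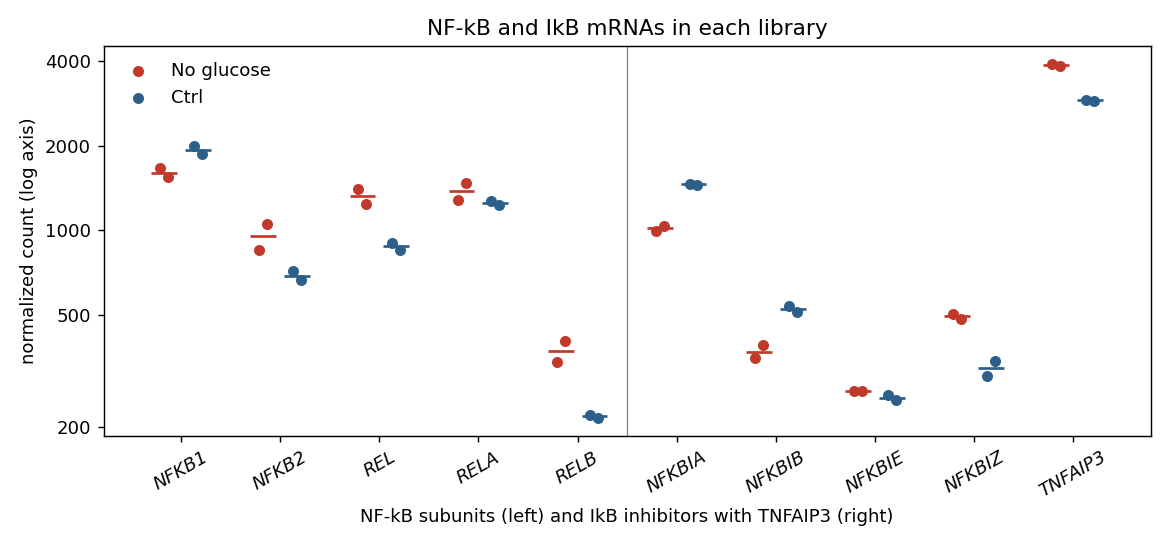
Normalized counts (log axis) of the 10 mRNAs in each library, with No glucose in red left of Ctrl in blue and a bar at each group's mean (n = 2 libraries each). RELB lies at 340 and 406 in No glucose and at 221 and 215 in Ctrl, and NFKBIA at 993 and 1040 in No glucose and at 1466 and 1454 in Ctrl.

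Promoter sequence was examined because these genes are known to include targets of their own products. RefSeq start windows (GRCh38.p14, 250 bases before to 50 bases after a start) were held for 8 of the 10 members, in 14 windows; RELB and NFKBIE were not searched. The kappa B consensus, searched on both strands with overlapping matches joined, was found in 9 of the 14 windows and in 7 of the 8 genes, the gene without a match being RELA. The same search matched 11.3% of all 35116 windows, 13.25% of all genes with a window and 16.6% of genes tested here. Genes with several windows have more chances of a match. The windows below are shown for 3 members that rose (REL, NFKB2, TNFAIP3) and 3 that fell (NFKB1, NFKBIA, NFKBIB). Each was picked for holding a match, and NFKB1, NFKB2 and NFKBIB also had a window without a match, not shown. Matches are in capitals and each sequence is read 5′ to 3′ along the gene's strand.
REL, chr2:60881324-60881623, plus strand: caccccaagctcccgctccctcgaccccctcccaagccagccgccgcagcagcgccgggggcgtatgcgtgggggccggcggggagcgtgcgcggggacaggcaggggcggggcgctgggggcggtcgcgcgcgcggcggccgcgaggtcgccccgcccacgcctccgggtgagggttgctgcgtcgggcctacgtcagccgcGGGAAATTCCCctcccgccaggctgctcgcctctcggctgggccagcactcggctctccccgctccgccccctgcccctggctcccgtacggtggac
NFKB2, chr10:102394328-102394627, plus strand: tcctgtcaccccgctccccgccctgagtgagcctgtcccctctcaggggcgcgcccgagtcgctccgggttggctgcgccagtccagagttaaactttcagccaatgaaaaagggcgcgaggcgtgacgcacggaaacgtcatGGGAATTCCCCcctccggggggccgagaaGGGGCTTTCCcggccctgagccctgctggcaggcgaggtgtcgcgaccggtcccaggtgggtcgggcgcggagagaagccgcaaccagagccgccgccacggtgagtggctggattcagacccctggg
TNFAIP3, chr6:137867009-137867308, plus strand: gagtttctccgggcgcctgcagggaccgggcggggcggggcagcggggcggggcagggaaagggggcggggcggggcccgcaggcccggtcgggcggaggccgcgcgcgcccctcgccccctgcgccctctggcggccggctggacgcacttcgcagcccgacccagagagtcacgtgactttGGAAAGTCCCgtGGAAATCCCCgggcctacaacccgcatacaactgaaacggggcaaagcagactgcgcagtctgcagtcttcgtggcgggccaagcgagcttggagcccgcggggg
NFKB1, chr4:102501109-102501408, plus strand: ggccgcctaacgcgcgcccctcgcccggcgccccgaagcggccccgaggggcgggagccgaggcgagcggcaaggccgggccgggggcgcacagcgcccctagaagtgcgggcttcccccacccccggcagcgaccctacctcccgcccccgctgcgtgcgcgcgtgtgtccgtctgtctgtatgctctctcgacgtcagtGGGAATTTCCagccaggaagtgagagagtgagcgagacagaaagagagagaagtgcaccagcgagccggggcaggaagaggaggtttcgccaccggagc
NFKBIA, chr14:35404700-35404999, minus strand: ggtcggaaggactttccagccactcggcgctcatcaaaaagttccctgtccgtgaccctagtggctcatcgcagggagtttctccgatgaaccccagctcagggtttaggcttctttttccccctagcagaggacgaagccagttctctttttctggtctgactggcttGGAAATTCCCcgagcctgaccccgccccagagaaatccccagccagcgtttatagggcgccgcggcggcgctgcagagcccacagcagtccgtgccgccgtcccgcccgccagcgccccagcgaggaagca
NFKBIB, chr19:38899719-38900018, plus strand: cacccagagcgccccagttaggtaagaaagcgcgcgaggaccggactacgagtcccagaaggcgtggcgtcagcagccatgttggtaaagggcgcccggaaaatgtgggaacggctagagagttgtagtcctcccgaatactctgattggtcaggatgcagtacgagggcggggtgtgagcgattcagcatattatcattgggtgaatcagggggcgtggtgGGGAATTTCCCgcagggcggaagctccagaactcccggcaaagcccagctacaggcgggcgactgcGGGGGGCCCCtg

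Within the searched span of 250 bases before to 50 bases after a start, matches were found in members of either direction. That span limits how far from the start a match could lie. In REL the match ran from base -47 to -37, counting back from the start, and in NFKB1 from -49 to -40. TNFAIP3 had a pair of matches, from -67 to -58 and from -55 to -46, and the NFKB2 window shown had matches from -107 to -97 and from -78 to -69. In NFKBIA the match ran from -81 to -72. NFKBIB had a match from -28 to -18 and another, made only of G and C, after the start from 39 to 48. NFKBIZ, not shown, had a match in each of its windows, from -223 to -214 and from -239 to -230. Matches were thus present in 4 members that rose and 3 that fell, and a match is a string of letters, not a measured binding site.

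Among the Rel proteins that carry an activation domain, REL and RELB rose and RELA was not called. REL (chr2:60881521-60931610, plus strand, GRCh38, GENCODE 29), the subunit prominent in lymphocytes, had 1404 and 1245 normalized counts in No glucose and 902 and 853 in Ctrl. Both glucose-deprived libraries were above both control libraries, a log2 fold change of 0.59 ± 0.08 (SE, n = 2 each; limma, adjusted p = 0.00013). RELB (chr19:45001430-45038198, plus strand), the partner of processed NFKB2, had 340 and 406 normalized counts in No glucose and 221 and 215 in Ctrl. The log2 fold change of RELB was 0.76 ± 0.11 (limma, adjusted p = 0.00027), from 224 and 289 reads in No glucose and 644 and 161 reads in Ctrl. It had the highest estimate among the members with all 4 libraries, but without ONG_10 it was 0.64, below REL at 0.68. RELA (chr11:65653596-65663094, minus strand), the main activating partner of processed NFKB1, had 1283 and 1469 normalized counts in No glucose and 1271 and 1235 in Ctrl. The groups were separated only by 1283 against 1271, and the log2 fold change of 0.13 had a 95% interval of -0.04 to 0.31 (limma, adjusted p = 0.23). RELA was called higher without ONG_9 (0.23, adjusted p = 0.0033) and with scaling to library totals (0.34, adjusted p = 0.013), and its adjusted p over the other settings ran from 0.0033 to 0.67.

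The precursor subunits moved in opposite directions. NFKB2 (chr10:102394110-102402529, plus strand), the precursor of the noncanonical route, had 854 and 1055 normalized counts in No glucose and 715 and 665 in Ctrl. It was higher in both glucose-deprived libraries, and the SD was 142 in No glucose and 35.9 in Ctrl. Its log2 fold change was 0.46 ± 0.10 (limma, adjusted p = 0.0040). NFKB1 (chr4:102501329-102617302, plus strand), the precursor of the canonical DNA-binding subunit, had 1666 and 1545 normalized counts in No glucose and 1993 and 1874 in Ctrl. It was lower in both, with a log2 fold change of -0.27 ± 0.07 (limma, adjusted p = 0.010). The NFKB1 call was lost with scaling to library totals (-0.06, adjusted p = 0.48), without ONG_10 (0.051), without CTRL_7 (0.24) and without CTRL_8 (0.094), within a range over settings of 0.00013 to 0.48. The NFKB2 call was lost without CTRL_7 (adjusted p = 0.055) and without CTRL_8 (0.062), within a range of 5.5e-06 to 0.062.

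The mRNAs of the IkB proteins that hold dimers in the cytoplasm fell or were not called. NFKBIA (chr14:35401511-35404749, minus strand), the inhibitor that is degraded and resynthesised fastest on activation, had 993 and 1040 normalized counts in No glucose and 1466 and 1454 in Ctrl. The groups were well apart, with an SD of 32.9 in No glucose and 8.76 in Ctrl. The log2 fold change was -0.52 ± 0.07 (limma, adjusted p = 9.9e-05). NFKBIB (chr19:38899700-38908893, plus strand), a related inhibitor, had 352 and 390 normalized counts in No glucose and 540 and 512 in Ctrl. Its fall of -0.50 ± 0.09 on the log2 scale passed the test (limma, adjusted p = 0.0013) but not without CTRL_7 (adjusted p = 0.068; 0.00061 to 0.068 over settings). The falls of NFKBIA and NFKBIB differed by less than their SEs, and that of NFKBIB was the deeper without ONG_10 (-0.58, against -0.56 for NFKBIA) and without CTRL_8 (-0.54, against -0.53). NFKBIB overlaps SIRT2 on the opposite strand, which had 1201 and 1360 normalized counts in No glucose and 1353 and 1236 in Ctrl (log2 fold change -0.02). NFKBIE (chr6:44258166-44265788, minus strand), the third classical inhibitor, had 268 and 269 normalized counts in No glucose and 259 and 249 in Ctrl. Its log2 fold change of 0.08 had a 95% interval of -0.15 to 0.31 (limma, adjusted p = 0.60), so the sign of any change is not resolved here. With scaling to library totals NFKBIE was called higher, at 0.29 (adjusted p = 0.047; up to 0.90 over settings).

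The nuclear IkB gene and the ubiquitin editor rose. NFKBIZ (chr3:101827991-101861022, plus strand), whose inducible product acts in the nucleus on a subset of NF-kB targets, had 503 and 485 normalized counts in No glucose and 304 and 342 in Ctrl. Both glucose-deprived libraries were higher, by 0.61 ± 0.10 on the log2 scale (limma, adjusted p = 0.00042). TNFAIP3 (chr6:137867188-137883312, plus strand), whose product A20 trims ubiquitin chains that activate IKK, had 3913 and 3832 normalized counts in No glucose and 2918 and 2887 in Ctrl. The libraries of each group lay close together and the log2 fold change was 0.42 ± 0.06 (limma, adjusted p = 0.00012). An antisense transcript within the TNFAIP3 locus, AL357060.1, had 855 and 847 normalized counts in No glucose and 511 and 490 in Ctrl, a log2 fold change of 0.77 (limma, adjusted p = 1.6e-05). The library kit keeps strand, but the counting strand is not given in the sources used here, so reads of TNFAIP3 and AL357060.1, or of NFKBIB and SIRT2, may not be fully separated.

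**Figure D2:**
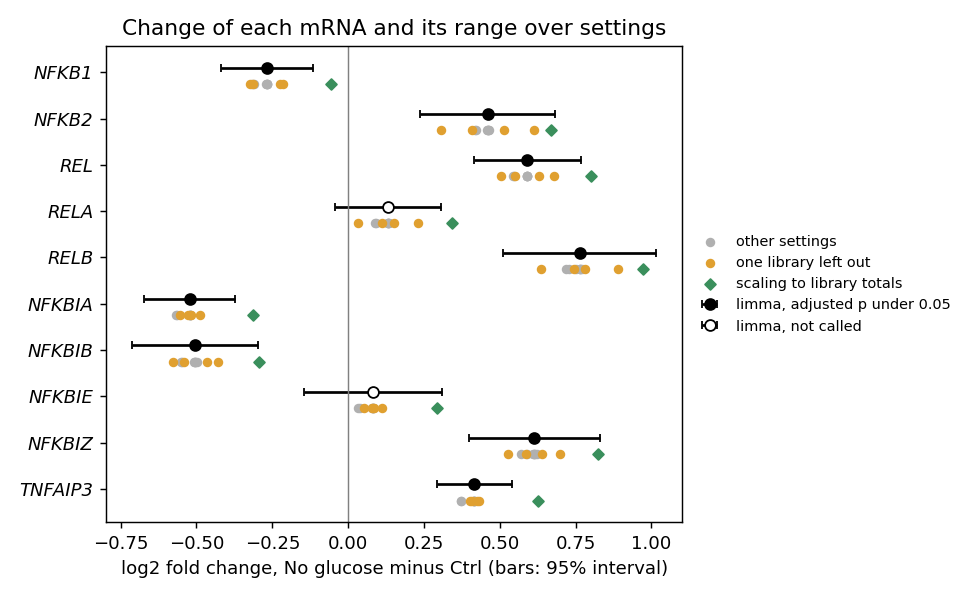
Log2 fold change of each mRNA, No glucose minus Ctrl, from limma with its 95% interval (filled where adjusted p is under 0.05), and below it the values under the other settings. RELA (0.13) and NFKBIE (0.08) have intervals that include 0, and scaling to library totals moves every member upward, NFKB1 to -0.06.

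With library totals in place of the deposited size factors, all tested genes had a median log2 fold change of 0.24, against 0.04. Among all genes it gave 6104 higher and 3820 lower calls, against 3948 and 5695. Among the members it gave 7 higher and 2 lower: NFKBIA and NFKBIB stayed lower, NFKB1 was no longer called, and RELA and NFKBIE were called higher. No member changed sign under any of the 12 other settings tried.

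In levels per kilobase of merged exon, TNFAIP3 and NFKBIA were the most abundant of the 10 mRNAs, and their order differed between the groups. TNFAIP3 was at 767 ± 11.4 normalized counts per kb in No glucose and 575 ± 4.40 in Ctrl (SD, n = 2 each), and NFKBIA at 428 ± 13.9 in No glucose and 615 ± 3.69 in Ctrl. Per length, NFKBIA therefore stood at 55.9% ± 2.64 of TNFAIP3 in No glucose and at 107% ± 0.177 in Ctrl. In No glucose the order went on with NFKB1 (257), RELA (252), NFKB2 (213), NFKBIB (160), RELB (123), NFKBIE (104), REL (101) and NFKBIZ (83.8 normalized counts per kb). The libraries of NFKB1 and RELA, of RELA and NFKB2, and of NFKBIE and REL overlapped there, so their order is not resolved. In Ctrl the order after NFKBIA and TNFAIP3 was NFKB1 (309), RELA (229), NFKBIB (226), NFKB2 (154), NFKBIE (98.4), RELB (71.9), REL (66.6) and NFKBIZ (54.8 normalized counts per kb). Only RELA and NFKBIB overlapped in Ctrl. These orders, and the level of NFKBIA relative to TNFAIP3, rest on merged exon length and were not computed with another length. The longest annotated transcript has 3923 bases against 5902 of merged exon for NFKBIZ, and 11255 against 13170 for REL. The order between genes, that of NFKBIZ and REL included, can therefore change with the length used.

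NFKB1 took a smaller share, and RELB, NFKB2 and REL a larger share, of the subunit mRNAs in No glucose than in Ctrl. Per kilobase, NFKB1 made up 29.3% and 25.2% of the 5 subunit mRNAs in No glucose and 37.4% and 37.0% in Ctrl. RELB made up 12.3% and 13.6% in No glucose and 8.55% and 8.77% in Ctrl. NFKB2 made up 20.9% and 24.0% in No glucose and 18.7% and 18.3% in Ctrl. These shares, like that of REL (11.7% and 9.65% in No glucose, 8.04% and 8.01% in Ctrl), did not overlap between groups, while RELA overlapped at 25.8% and 27.5% in No glucose and 27.3% and 27.9% in Ctrl. With 2 libraries against 2, an exact permutation test cannot give a two-sided p below 0.33, so no test is given. NFKB2 stood at 71.5% and 95.3% of NFKB1 in No glucose and at 50.1% and 49.5% in Ctrl, and RELB at 47.7% and 49.7% of RELA in No glucose and at 31.3% and 31.4% in Ctrl.

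**Figure D3:**
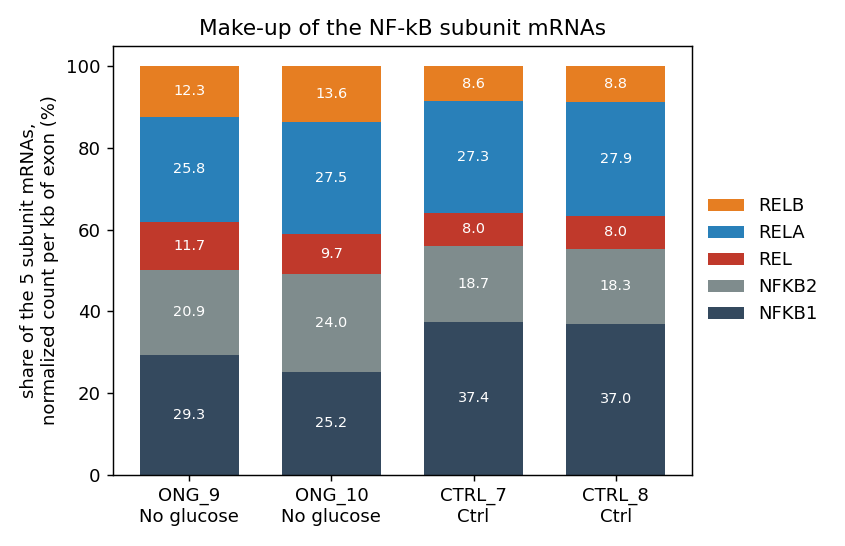
Share of each subunit in the summed normalized counts per kilobase of merged exon of the 5 NF-kB subunit mRNAs, 1 bar per library with the No glucose libraries on the left. NFKB1 takes 29.3% and 25.2% in No glucose and 37.4% and 37.0% in Ctrl.

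The summed level of the subunits was higher and that of the classical inhibitors lower in No glucose, in sums chosen after the members' values were seen and not tested. The 5 subunits together were at 945 ± 49.0 normalized counts per kb in No glucose and 831 ± 30.1 in Ctrl (SD, n = 2 each). NFKBIA, NFKBIB and NFKBIE together were at 692 ± 25.8 in No glucose and 940 ± 14.9 in Ctrl. The inhibitor sum was 74.1% and 72.5% of the subunit sum in No glucose, and 112% and 115% in Ctrl. These percentages depend on the length used, here merged exon, and were not computed with the longest annotated transcript. This restates the members' own values at the level of mRNA and says nothing of protein.

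The genes nearest in pattern over the 4 libraries were sought for RELB and NFKBIA, the members with the highest and lowest estimates over all 4 libraries, among 11538 protein-coding genes whose mean reached 20 normalized counts. For RELB they were OSBPL7, MYO1G and IL21R, with root mean square differences of 0.014, 0.018 and 0.019 in centred log2 values. For NFKBIA they were TBP, DIS3L and APMAP, at 0.0049, 0.0095 and 0.010. With 4 libraries in 2 groups, such closeness mainly means a fold change of like size.

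The rest of the pathway was split. Over 6 lists of NF-kB pathway genes, 79 of 100 genes were tested, 25 were higher and 23 lower, where 14.4% of all tested genes were higher and 20.7% lower (19.5% and 49.0% at 200 normalized counts or more). The median log2 fold change was 0.03, against 0.04 for all tested genes. Nothing particular to any list is read from these counts. The counts were 13 higher and 9 lower without CTRL_7, 13 higher and 13 lower without CTRL_8, and 30 higher and 11 lower with library totals. Of 3 other IkB-family genes, 2 were higher and none lower. BCL3, a nuclear IkB protein that binds dimers of processed NFKB1 or NFKB2, had 106 and 122 normalized counts in No glucose and 51.9 and 32.1 in Ctrl, a log2 fold change of 1.46 ± 0.23 (limma, adjusted p = 0.00042). NFKBIL1, a more distant relative, changed by 0.88 ± 0.25 from low counts, 53.1 and 40.7 in No glucose and 24.0 and 25.4 in Ctrl. The BCL3 call was lost without ONG_10, and that of NFKBIL1 without ONG_9, CTRL_7 or CTRL_8 and by DESeq2.

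Of 10 IKK and IKK-related kinase genes and their partners, 2 were higher and 5 lower. Among all tested genes 14.4% were higher and 20.7% lower (19.5% and 49.0% at 200 normalized counts or more). With library totals 3 genes of this list were higher and 1 lower. IKBKB, the catalytic IKK subunit of the canonical route, had 2650 and 2571 normalized counts in No glucose and 1877 and 1944 in Ctrl, a log2 fold change of 0.45 ± 0.06 (limma, adjusted p = 0.00013). TBK1, an IKK-related kinase of the interferon response, had 194 and 222 in No glucose and 572 and 520 in Ctrl, the deepest fall of the list at -1.39 ± 0.11 (limma, adjusted p = 1.8e-06). TAB2, an adaptor of the kinase TAK1, changed by 0.33 ± 0.06, and its partner TAB1 by -0.32 ± 0.10. IKBKE, another IKK-related kinase, changed by -0.28 ± 0.07 and MAP3K14, the noncanonical kinase, by -0.49 ± 0.17, from 105 and 146 normalized counts in No glucose and 183 and 165 in Ctrl. The calls of TAB1, IKBKE and MAP3K14 were lost without CTRL_7 and with library totals, that of TAB1 also without ONG_10, those of IKBKE and MAP3K14 also without CTRL_8, that of MAP3K14 also without ONG_9, with no filter on low values and by DESeq2, and that of TAB2 without CTRL_7 or without CTRL_8. CHUK, the other catalytic IKK subunit, was the fifth lower gene, and IKBKG, the regulatory subunit, was not called. In this list 1 gene was higher without CTRL_7 and 1 without CTRL_8, and 1 and 2 were lower.

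Of 19 adaptor genes, 7 were higher and 6 lower, against 14.4% higher and 20.7% lower among all tested genes (19.5% and 49.0% at 200 normalized counts or more). TRAF1, an inducible signalling adaptor, rose most, with 182 and 205 normalized counts in No glucose and 81.1 and 70.9 in Ctrl (log2 fold change 1.34 ± 0.15; limma, adjusted p = 2.8e-05). TRAF6 (0.50 ± 0.06) and IRAK4 (0.44 ± 0.06), of the Toll and interleukin 1 receptor route, were higher too. TRAF2 and TRAF3, which keep the MAP3K14 product unstable, were lower, with log2 fold changes of -0.90 ± 0.12 for TRAF2 and -0.60 ± 0.06 for TRAF3. BIRC3, a ubiquitin ligase of the same complex, had 1386 and 1319 normalized counts in No glucose and 2016 and 2002 in Ctrl (-0.57 ± 0.06), and IRAK1, a kinase of the Toll receptor route, was lower too (-0.60 ± 0.10). Without CTRL_7, and likewise without CTRL_8, fewer adaptor genes were called in either direction.

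Of 21 receptors that signal to NF-kB, 14 were tested, with 1 higher and 3 lower. Among all tested genes 14.4% were higher and 20.7% lower. TNFRSF1A, the main receptor for tumour necrosis factor, had 1644 and 1810 normalized counts in No glucose and 2056 and 2068 in Ctrl (log2 fold change -0.26 ± 0.07), and TNFRSF1B, the second one, had 84.9 and 99.6 in No glucose and 61.5 and 65.5 in Ctrl (0.53 ± 0.17). Both calls were lost without CTRL_7 or without CTRL_8, that of TNFRSF1A also with library totals, and that of TNFRSF1B also without ONG_10, with TMM scaling and by DESeq2. Without CTRL_7, and likewise without CTRL_8, limma called 0 receptors at the adjusted threshold, with 1 and 4, in that order, at an unadjusted p under 0.05; DESeq2 on all 4 libraries called 0 higher and 1 lower, and edgeR 1 higher and 4 lower. The other lower calls, TLR2 and TLR3, were at no more than 26.1 normalized counts in any library. LTBR and IL1R1 were at 0 reads in every library.

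Of 11 genes for ubiquitin editors and A20 partners, 5 were higher and 2 lower. Among all tested genes 14.4% were higher and 20.7% lower (19.5% and 49.0% at 200 normalized counts or more). CYLD, a deubiquitinase that restrains IKK, had 1224 and 1165 normalized counts in No glucose and 755 and 754 in Ctrl (log2 fold change 0.66 ± 0.07; limma, adjusted p = 2.6e-05). TAX1BP1 (0.34 ± 0.05), N4BP1 (0.28 ± 0.06) and RNF11 (0.23 ± 0.06) were higher too. TNIP2 (-0.43 ± 0.11) and the ubiquitin ligase gene ITCH (-0.23 ± 0.05) were lower, both no longer called with library totals. Without CTRL_7 just 1 gene, CYLD, was called in this list, and without CTRL_8 the count was 2 higher (CYLD and TAX1BP1) and 1 lower (TNIP2).

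Known NF-kB target genes went both ways. Of 36 on the list, 22 were tested, 8 were higher and 7 lower, against 14.4% higher and 20.7% lower among all tested genes, with a median log2 fold change of 0.00. NR4A2, which is also an immediate early gene, had 302 and 274 normalized counts in No glucose and 12.7 and 12.0 in Ctrl (4.43 ± 0.19; limma, adjusted p = 3.7e-08). PLAU (1.12 ± 0.13), GADD45B (0.94 ± 0.11) and the caspase-8 regulator CFLAR (0.74 ± 0.06) were higher, and SOD2, the mitochondrial superoxide dismutase, was lower, with 1137 and 1052 in No glucose and 3125 and 3085 in Ctrl (-1.50 ± 0.07; limma, adjusted p = 4.6e-08). A second identifier with the symbol SOD2 was at a far lower level, and reads may be split between them. TNFAIP2 (-1.41 ± 0.19) and the dendritic and lymphocyte surface gene CD83 (-0.75 ± 0.06) were lower as well. The cytokine gene TNF had 25.8 and 40.7 normalized counts in No glucose and 65.3 and 54.8 in Ctrl (-0.86 ± 0.26), a call lost without ONG_9, CTRL_7 or CTRL_8, with library totals and by DESeq2. LTA (9.10 and 21.0 in No glucose, 16.5 and 9.36 in Ctrl) and LTB (173 and 216 in No glucose, 212 and 231 in Ctrl) were not called. MYB, IL2RA, CXCL8 and IL1B made up the other higher calls, the last 3 at no more than 18.2 normalized counts in any library. Of the 36, 8 had 0 reads in all 4 libraries, among them the chemokine genes CCL2, CCL3, CCL5 and CXCL10. Without CTRL_8, 5 target genes were higher, and without CTRL_7, 4 were lower.

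**Figure D4:**
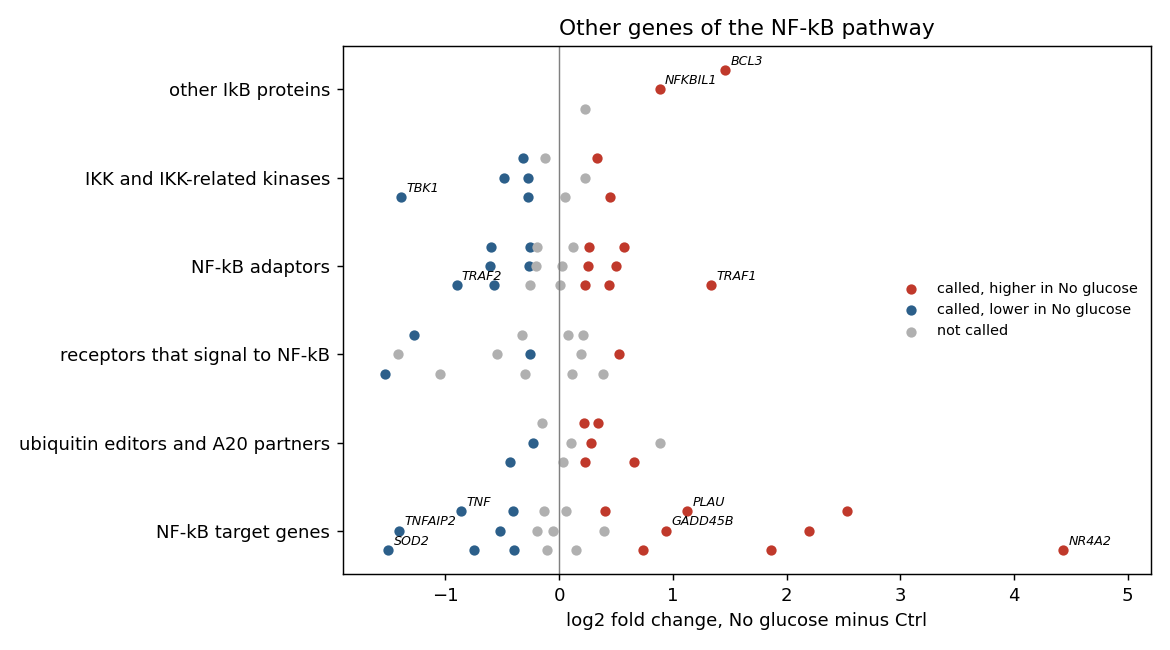
Log2 fold change, No glucose minus Ctrl, of each tested gene of the 6 pathway lists, coloured by its limma call, with the vertical spread within a list only to separate points. Each list but that of the other IkB proteins has called genes on both sides of 0, from TLR2 at -1.53 and SOD2 at -1.50 to NR4A2 at 4.43.

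In the authors' deposited table the same 8 members had an adjusted p under 0.05, in the same directions. The authors' deposited table gave log2 fold changes of 0.77 for RELB, 0.62 for NFKBIZ, 0.59 for REL, 0.46 for NFKB2, 0.42 for TNFAIP3, -0.27 for NFKB1, -0.51 for NFKBIB and -0.52 for NFKBIA. It is computed from the same libraries and is no independent evidence.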

How the data were processed

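Total RNA libraries (Illumina TruSeq Stranded Total RNA, single-end, per the labels) were made from 2 No glucose and 2 Ctrl samples. The tools named, per the submitters' processing notes, are STAR 2.6.0c, RSEM 1.3.0 and DESeq2 1.18.1, with hg38; the annotation release and counting strand are not given in the sources used here. The deposited signal values are normalized counts, in which each library's whole-number counts are divided by a factor of its own. These counts are called reads here, and any rounding of RSEM estimates cannot be seen in them. The log2 fold changes and adjusted p-values of the authors' own comparison are used as deposited, to set beside the values here. Its standard errors, score (test statistic) and unadjusted p-values were deposited too but are not used in the text. The ONG columns were read as No glucose, the sole group besides Ctrl that the table is named for; the columns carry no replicate numbers.

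Whole reads were recovered from the step between low values in each library, to within 0.01 read for 100% of values. The table had 60868 rows and 60609 gene identifiers; coordinates and merged exon lengths came from GENCODE 29, which lists 58457 of them. The main test was limma 3.58.1 with a trended prior (R 4.3.3), two-sided, run on log2(normalized count + 1) of genes averaging 1 normalized count or more, a scale that understates the change of low genes. P-values were Benjamini-Hochberg adjusted over 27486 genes, with a threshold of 0.05. Alternatives were edgeR 4.0.16 on the recovered reads (10256 genes called, against 9643), DESeq2 1.42.0 (7302), other scalings, filters and pseudocounts, and each library left out. The fits were also run on simulated data in which both groups had the same spread, unlike the replicates here. No result in this report rests on that run. Members, lists and tests were chosen with earlier results of these data known. Named pathway genes were up to 4 called genes per direction and list with the largest change, at 20 normalized counts or more on average; genes named outside that rule were chosen after their values were seen. Some genes of the lists are counted but not reported by name here. Promoter windows come from RefSeq (GRCh38.p14).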

Additional observations from a re-analysis of the deposited data

How the results depend on the processing

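Across 12 other settings no member changed sign, and the calls of REL, RELB, NFKBIZ, TNFAIP3 and NFKBIA passed under every setting. Leaving out each library in turn gave 4 to 6 higher and 1 to 3 lower members, the 1 being without CTRL_7, 13 to 24 higher and 9 to 22 lower pathway genes (9 lower without CTRL_7), and 2027 to 4172 higher and 3318 to 6387 lower genes in the whole table. Scaling to library totals gave 11 lower pathway genes, against 23, and 6104 higher genes in the whole table, against 3948, and DESeq2 gave 2436 higher genes in the whole table. Of the 32 named pathway genes, 14 lost their call under at least 1 setting, 13 of them without CTRL_7, 10 without CTRL_8 and 7 with library totals. With the longest annotated transcript as the length, the Ctrl share of NFKB1 was 38.1%, and the shares in No glucose and Ctrl were 20.1% and 16.3% for NFKB2, 8.53% and 6.28% for REL, 31.2% and 31.7% for RELA, and 11.7% and 7.66% for RELB, with the same order of the groups for each subunit. Apart from fewer samples in the fits with a library left out, the cause of these shifts was not tested. No paired analysis was possible because the columns carry no replicate numbers. Depth limits the lowest members: RELB had 161 reads in CTRL_8 and NFKBIE 177 in ONG_9.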
